A study of Sus scrofa with 4 samples.

Results

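The mitochondrial ribosomal protein genes were taken as every protein-coding gene whose symbol began with MRPL or MRPS and a number. The rule found 75 genes, 47 named MRPL and 28 named MRPS, among 16192 protein-coding genes and 22944 genes with an expression value in all. No expression value was used to choose them. By the place of their products in the mammalian mitochondrial ribosome, 49 belong to the large subunit, MRPS18A and MRPS30 among them in spite of their names, and 25 to the small subunit. MRPS36 carries the family name but is a subunit of the 2-oxoglutarate dehydrogenase complex. All 75 were matched by symbol to the RefSeq annotation of the pig genome (Sscrofa11.1).

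Mitochondria translate their own small set of mRNAs, which encode subunits of the respiratory chain and of ATP synthase, on ribosomes of their own. The RNA of these ribosomes is transcribed from mitochondrial DNA, whereas each of their proteins is encoded in the nucleus, made in the cytosol and imported. In fat cells, mitochondria supply precursors and energy for the synthesis of stored lipid, and the conversion of preadipocytes into adipocytes is known to be accompanied by growth of the mitochondrial compartment.

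The samples came from male Erhualian piglets, a Chinese pig breed, aged 5 days. Preadipocytes of the subcutaneous fat of 3 piglets were grown to confluence (D0), exposed for 2 days to a cocktail of dexamethasone, 3-isobutyl-1-methylxanthine and insulin (D2), kept with insulin for a further 2 days (D4), and then held in growth medium until D8. For each stage the RNA of the 3 piglets was mixed in equal parts, depleted of ribosomal RNA and sequenced as 1 strand-specific library. Each stage was therefore represented by 1 library, without replicates, so no statistical test of a difference between stages was possible, and stage and library cannot be told apart. Every difference is given as its size, with a 95% interval for the counting of fragments only, which leaves out the variation between piglets and cultures.

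Levels are FPKM, the number of fragments per length of transcript, scaled by all fragments counted in the library. A ratio between stages is the difference of log2(FPKM + 0.01), so that 1 is a doubling. The libraries held between 54128151 and 75387428 counted fragments, and the members together took 0.323%, 0.306%, 0.303% and 0.300% of them at D0, D2, D4 and D8 (Wilson 95% intervals from 0.321% to 0.324% at D0 and from 0.298% to 0.301% at D8, for counting error only). No member had fewer than 214 fragments in any library. The summed FPKM of 7 adipocyte markers was 106, 388, 1553 and 2029 at these stages, with FABP4 at 77.5, 201, 853 and 1557. From D4 to D8, FABP4, CIDEC and LEP were higher, with LEP below 1 FPKM throughout. Lower from D4 to D8 were ADIPOQ (179 to 158), LPL (250 to 142), PLIN1 (215 to 90.3) and PPARG (51.9 to 25.8). The 5 preadipocyte and stromal markers were above 1 FPKM throughout, with summed levels between 943 and 2518. Markers of endothelial and epithelial cells and of leukocytes were below 1 FPKM in every library, except PECAM1, at 1.14 to 2.56, and AIF1, at 1.05 in the D8 library. Of 3 skeletal muscle markers only 1 was measured, MYOG, at no more than 0.0269 FPKM. In cultures with a changing cell make-up, fewer cells that express a gene and less of its RNA per cell cannot be told apart.

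All 75 members passed 1 FPKM in each of the 4 libraries, and 54 of them passed 10 FPKM in each. Among all 16192 protein-coding genes, 9191 (56.8%) were reliably expressed, which means at least 1 FPKM in at least 3 of the 4 libraries, and 35.8% of these passed 10 FPKM in all 4. The 9191 reliably expressed mRNAs, the members among them, served as the background. Because every member passed the filter in every library, the counts that follow cover the whole family.

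**Figure D1:**
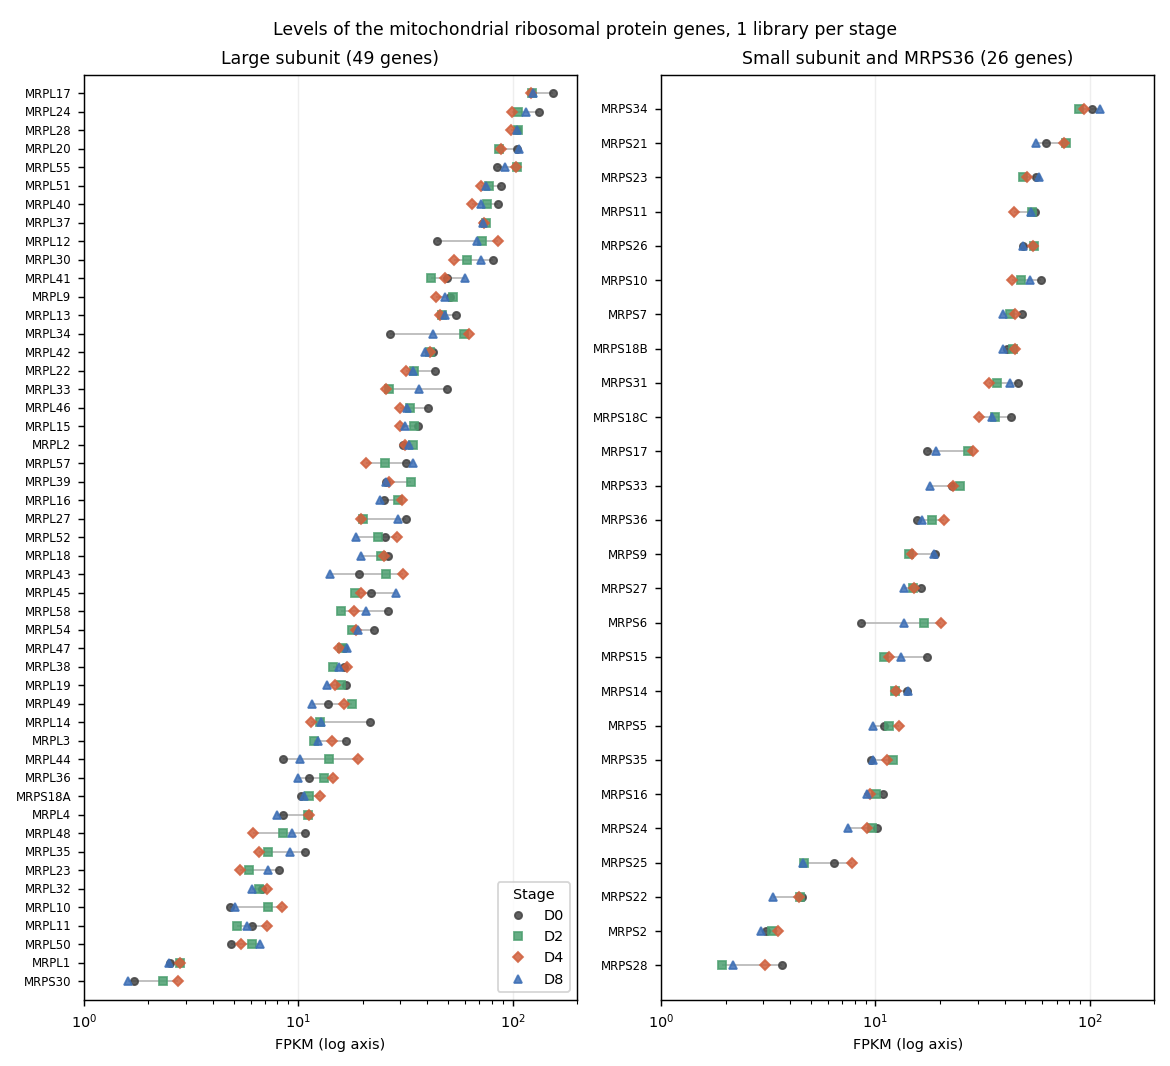
FPKM on a log axis (horizontal) of each of the 75 genes (vertical, ordered by mean level) in the D0, D2, D4 and D8 libraries, with the large subunit on the left and the small subunit and MRPS36 on the right; grey lines join the lowest and the highest stage. Levels ran from MRPS30, at 1.60 to 2.74 FPKM, to MRPL17, at 122 to 154 FPKM, and for most genes the 4 stages lay close together.

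The most abundant member was MRPL17, a large-subunit protein, at 154, 123, 122 and 125 FPKM at D0, D2, D4 and D8. It was followed in mean level by MRPL24, a protein near the rim of the exit tunnel for the nascent chain, MRPL28, MRPS34 and MRPL20. MRPS34, a small-subunit protein without a bacterial counterpart, was at 102, 88.9, 93.7 and 111 FPKM. These 5 genes were all between 86.3 and 154 FPKM in every library.

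At the other end were MRPS30, MRPL1, MRPS28, MRPS2 and MRPS22. MRPS30 was at 1.72, 2.35, 2.74 and 1.60 FPKM, and MRPL1 at 2.51, 2.82, 2.80 and 2.49 FPKM. The transcript lengths that turn the deposited values into whole fragments were 19258 bases for MRPS30 and 14048 bases for MRPL1, the 2 longest of the family, against a median of 1369 bases. Across the 75 genes the Spearman correlation between this length and mean FPKM was -0.71, against -0.45 over 9190 reliably expressed mRNAs. Length enters the FPKM as its divisor, so these correlations are descriptions, and how far the length sets the order of the levels was not tested. Between length and the log2 ratio of 2 stages, the correlations over the 75 genes ran from -0.18 (D8 against D4) to 0.11 (D4 against D0). Over 9190 mRNAs they ran from -0.22 (D8 against D4) to 0.17 (D4 against D2). The part of length in the differences between stages was not tested.

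The order of the genes was nearly the same at each stage. Spearman correlations of the 75 levels between stages lay between 0.94 (D0 and D4) and 0.99 (D2 and D4). They are descriptions across genes that share the same 4 libraries.

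The family as a whole stayed near its starting level. The summed level of the 75 genes was 2584, 2445, 2412 and 2432 FPKM at D0, D2, D4 and D8, and the median gene was at 22.7, 23.5, 20.8 and 19.2 FPKM. Of the summed FPKM of all protein-coding genes, the members took 0.630%, 0.643%, 0.604% and 0.589%. The highest stage of a gene was most often D0, in 33 of 75 genes (36.5% of all mRNAs), and the lowest stage most often D8, in 26 of 75 genes (37.5% of all mRNAs).

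The spread of a gene over the 4 stages was narrow. The ratio of its highest to its lowest stage had a median of 1.35 over the members and of 1.64 over all reliably expressed mRNAs. It was under 1.5 in 52 of 75 members (69.3%), against 38.3% of all mRNAs. It was at least 2 in 4 members, MRPS6, MRPL34, MRPL44 and MRPL43, against 30.6% of all mRNAs. The flattest member was MRPL37, a large-subunit protein, at 72.9, 74.9, 73.8 and 72.7 FPKM, a ratio of 1.03. The median level of the members was above that of all mRNAs (22.7 against 8.23 FPKM at D0). The transcript lengths worked out for the members were shorter (median 1369 against 3264 bases). The part of these features in the narrow spread was not tested.

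From D0 to D2, with the differentiation cocktail, 29 members were higher and 46 lower, where 48% of all mRNAs were higher. The median log2 ratio was -0.10, against -0.03 for all mRNAs. At least 1.5-fold higher were 6 members (8%), against 15.6% of all mRNAs, and at least 1.5-fold lower were 6, against 20.1%. Past 2-fold was MRPL34 alone, which was higher (6.67% of all mRNAs), and no member was 2-fold lower (10.1% of all mRNAs). Scaled to the summed FPKM of protein-coding genes, 39 members were higher, and under both scalings tried 2 passed 2-fold higher. The shares of all mRNAs here and below are for the deposited FPKM. They were not worked out under the other scalings, so the rescaled counts have no share beside them.

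From D2 to D4, after the cocktail was replaced by insulin, 37 members were higher and 38 lower, where 62.5% of all mRNAs were higher. The median was -0.01, against 0.09 for all mRNAs. MRPS25 and MRPS28 were at least 1.5-fold higher (11.7% of all mRNAs), and no member was 1.5-fold lower (2.96% of all mRNAs). No member passed 2-fold, against 4.24% of all mRNAs that were higher and 0.838% that were lower. With the libraries scaled to the median mRNA, 19 members were higher, 1 of them by 1.5-fold. Scaled to the summed FPKM of protein-coding genes, 27 members were higher. The 62.5% of all mRNAs does not apply to these rescaled counts.

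From D4 to D8, in growth medium, 35 members were higher and 40 lower, where 35.1% of all mRNAs were higher. The median was -0.06, against -0.21 for all mRNAs. At least 1.5-fold lower were 6 members, against 25.9% of all mRNAs, and at least 1.5-fold higher were MRPL48 and MRPL57, against 9.92%. MRPL43 was the single member lower by at least 2-fold (10.1% of all mRNAs). With the libraries scaled to the median mRNA, 47 members were higher, 8 of them by at least 1.5-fold, and 2 were 1.5-fold lower and 0 by 2-fold. Scaled to the summed FPKM of protein-coding genes, 1 was 1.5-fold higher and 10 were lower. The balance of the 2 directions thus depended on the scaling. The 35.1% of all mRNAs is for the deposited FPKM and does not apply to the rescaled counts.

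Against D0, the D4 library had 32 members higher and 43 lower, where 53.8% of all mRNAs were higher, with a median of -0.10, against 0.06 for all mRNAs. At least 1.5-fold higher were 8 members (10.7%), against 22% of all mRNAs, and 9 were lower (12%), against 17.5%. MRPS6, MRPL34 and MRPL44 were at least 2-fold higher (10.4% of all mRNAs), and no member was 2-fold lower (8.81% of all mRNAs). Scaled to the summed FPKM of protein-coding genes, 5 members were 1.5-fold lower, and scaled to the median mRNA, 1 was 2-fold lower.

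The D8 library had 21 members above and 54 below D0, where 31.5% of all mRNAs were above, with a median of -0.12, against -0.18 for all mRNAs. MRPL12, MRPL34 and MRPS6 were at least 1.5-fold higher (6.92% of all mRNAs), MRPL14 and MRPS28 at least 1.5-fold lower (14.6%), and no member passed 2-fold, against 3.6% of all mRNAs that were higher and 3.68% that were lower. The D0 library enters 3 of these 5 comparisons, and D2, D4 and D8 are also shared, so they are not separate observations. With the libraries scaled to the median mRNA, 39 members were above D0 at D8. The 31.5% of all mRNAs is for the deposited FPKM and does not apply to this count.

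The median of all mRNAs itself moved between libraries, by 0.21 on the log2 scale from D4 to D8, and this shift depends on the scaling. Relative to the median of all mRNAs, the members' median differed by -0.08 from D0 to D2, -0.10 from D2 to D4, 0.16 from D4 to D8, -0.15 from D0 to D4 and 0.07 from D0 to D8. A scaling multiplies all genes of a library by the same number, so these differences hardly depend on it by construction.

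**Figure D2:**
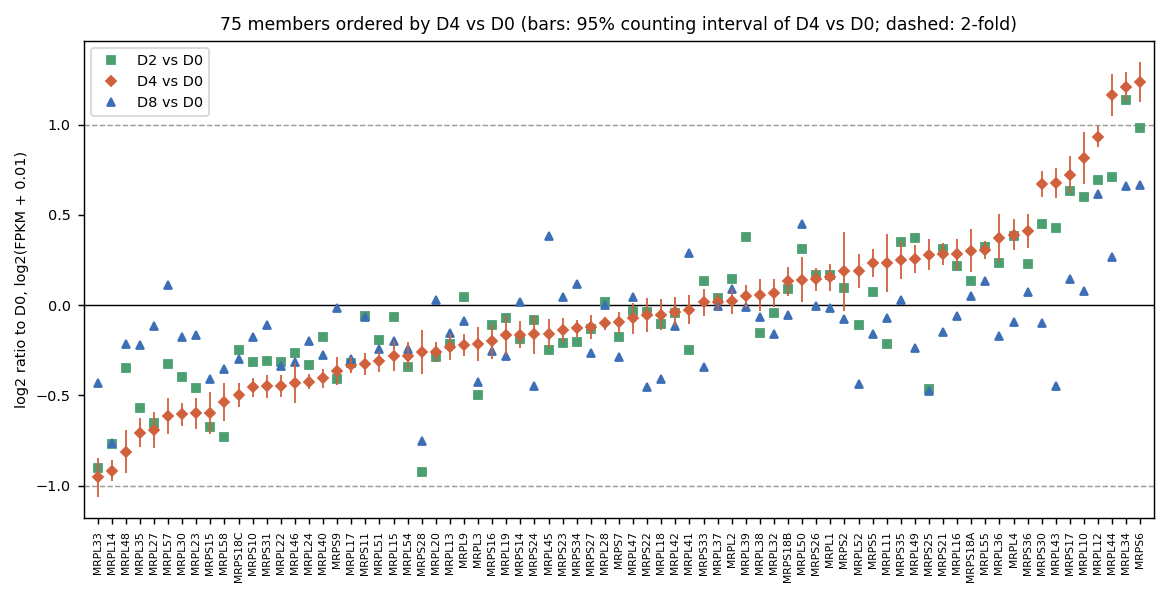
Log2 ratio to D0 (vertical, log2(FPKM + 0.01)) of each of the 75 genes (horizontal, ordered by D4 vs D0) at D2, D4 and D8, with 95% counting intervals for D4 and dashed lines at 2-fold. At D4, 3 genes lay above the upper line, MRPS6 the highest at 1.24, and none below the lower line, with MRPL33 the lowest at -0.95.

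The genes did not share 1 course. In 25 of 75 (33.3%) both the D2 and the D4 level lay above those of D0 and D8, as in 36.4% of all mRNAs. In 24 (32.0%) both lay below, as in 24.2% of all mRNAs, and the other 26 followed neither course. Both courses held large-subunit and small-subunit genes.

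MRPL34, which encodes a large-subunit protein with a bacterial counterpart (chromosome 2, 60377904 to 60378967), was at 26.9, 59.2, 62.3 and 42.6 FPKM at D0, D2, D4 and D8. The D0 library was the lowest and D8 lay between D0 and D2. The ratio to D0 was 2.20-fold at D2 (log2 1.14, interval 1.05 to 1.22) and 2.32-fold at D4 (log2 1.21, interval 1.13 to 1.29).

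MRPS6, a small-subunit gene on chromosome 13 (197687906 to 197756773), was at 8.56, 16.9, 20.2 and 13.6 FPKM. All 3 later libraries lay above D0, with D4 the highest, at 2.36-fold (log2 1.24, interval 1.13 to 1.35). At D8 the level was still 1.59-fold above D0.

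MRPL44, a large-subunit protein that resembles RNase III (chromosome 15, 125732419 to 125739819), was at 8.48, 13.9, 19.0 and 10.2 FPKM. It was 2.24-fold above D0 at D4 (log2 1.17, interval 1.05 to 1.28). By D8 most of the difference was gone, with a log2 ratio of -0.90 to D4.

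MRPL12, the stalk protein that recruits translation factors and has also been linked to the mitochondrial RNA polymerase (chromosome 12, 1200458 to 1203817), was at 44.6, 72.0, 85.2 and 68.4 FPKM. It was 1.91-fold above D0 at D4 and 1.53-fold at D8. All 3 later libraries lay above D0.

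The other genes that stood higher at D2 and D4 came from several places of the ribosome. MRPL10, at the base of the stalk, was at 4.80, 7.26, 8.44 and 5.07 FPKM, 1.76-fold above D0 at D4, while MRPL11, its neighbour in the ribosome, was at 6.06, 5.21, 7.13 and 5.76 FPKM. MRPS17, a small-subunit protein, was at 17.3, 26.9, 28.6 and 19.2 FPKM. MRPS30, which had the longest of the lengths worked out from the deposited values, was 1.59-fold above D0 at D4 and back at 0.933-fold at D8.

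MRPL43, a large-subunit protein, was at 19.2, 25.8, 30.7 and 14.1 FPKM. It was 1.60-fold above D0 at D4 and, at D8, below each of the earlier libraries, with a log2 ratio of -1.13 to D4 (interval -1.23 to -1.02). The gene (chromosome 14, 112068678 to 112070226) overlaps TWNK, the gene of the mitochondrial DNA helicase on the opposite strand, over 1549 bases, its whole length. TWNK was at 0.591, 1.14, 1.65 and 0.646 FPKM, also highest at D4. The libraries keep the strand, but the strand setting of the counting is not given in the sources used here, so the part of TWNK reads in the MRPL43 values was not tested.

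MRPL33, a large-subunit protein with a bacterial counterpart (chromosome 3, 111428850 to 111438735), was at 49.5, 26.5, 25.6 and 36.8 FPKM at D0, D2, D4 and D8. The D2 and D4 libraries lay at about the same low level and D8 between them and D0. The log2 ratio to D0 was -0.90 at D2 (interval -1.02 to -0.79) and -0.95 at D4 (interval -1.06 to -0.85).

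MRPL14, a large-subunit protein at the face turned to the small subunit (chromosome 7, 39125049 to 39138336), was at 21.6, 12.7, 11.4 and 12.7 FPKM. All 3 later libraries lay below D0 and close to each other, and at D8 it was the member with the largest difference below D0, with a log2 ratio of -0.76. TMEM63B, on the opposite strand, overlaps 653 bases of it and was at 5.71, 2.12, 3.30 and 2.74 FPKM, and its part in the MRPL14 values was not tested.

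MRPS28, a small-subunit protein, was at 3.66, 1.92, 3.05 and 2.17 FPKM. It changed back and forth, with a log2 ratio of -0.92 from D0 to D2 and of 0.66 from D2 to D4. MRPS25, another small-subunit protein, was at 6.39, 4.62, 7.76 and 4.59 FPKM, with D0 and D4 above D2 and D8.

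MRPL48, in the central protuberance of the large subunit, was at 10.8, 8.48, 6.15 and 9.31 FPKM, with the lowest level at D4. MRPL57 was at 31.8, 25.3, 20.7 and 34.4 FPKM, and MRPL27 at 31.8, 20.2, 19.7 and 29.3 FPKM. In both, D4 was the lowest library and D8 lay near D0, at a log2 ratio of 0.11 and -0.12. The remaining members at least 1.5-fold below D0 at D4 were MRPL23, MRPL30, MRPL35 and MRPS15.

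**Figure D3:**
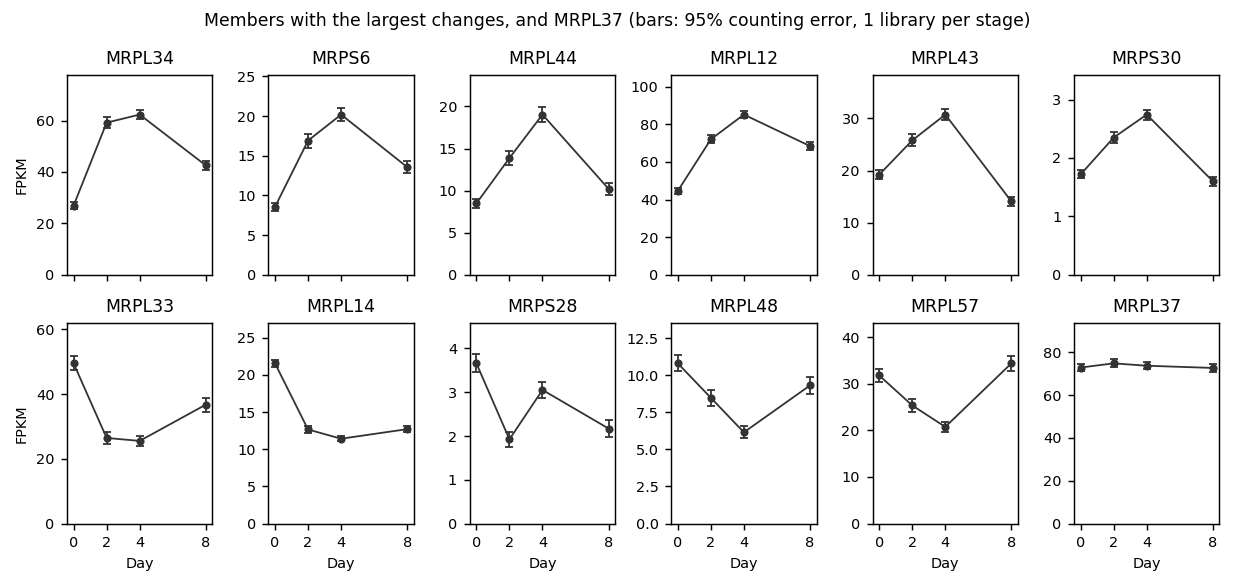
FPKM (vertical, from 0, each panel on its own scale) by day (horizontal) of 11 genes with large differences and of MRPL37, with bars for 95% counting error of the single library at each stage. In the upper row the D4 library was the highest, from MRPL34 at 62.3 FPKM to MRPS30 at 2.74; in the lower row the D0 or D8 library was the highest, apart from MRPL37, which stayed between 72.7 and 74.9 FPKM.

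By place in the ribosome, the 49 large-subunit genes had a median D4-to-D0 log2 ratio of -0.07 (21 higher) and the 25 small-subunit genes of -0.12 (10 higher). For all mRNAs the D4-to-D0 median was 0.06, with 53.8% higher. From D4 to D8 the medians were 0.03 (26 higher, 53.1%) and -0.18 (9 higher, 36%), against -0.21 and 35.1% for all mRNAs. The ratio of the highest to the lowest stage was under 1.5 in 31 of 49 large-subunit genes and in 20 of 25 small-subunit genes. Of all mRNAs, 38.3% had a ratio under 1.5.

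Members with a counterpart in bacterial ribosomes and members without one had close medians, but different numbers past 1.5-fold. The median D4-to-D0 log2 ratio was -0.16 over the 45 genes with a counterpart and -0.03 over the 29 without, and the medians of the ratio of highest to lowest stage were 1.34 and 1.37. From D0 to D2, 22.2% of the genes with a counterpart and 6.90% of those without one differed by at least 1.5-fold in either direction, against 35.7% of all mRNAs. From D4 to D8 the order was the reverse, at 2.22% and 24.1%, against 35.9% of all mRNAs, with 5 of the 29 genes without a counterpart and 1 of the 45 with one at least 1.5-fold lower. No test of these differences was made.

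The 4 measured genes on the list for the stalk and its base were MRPL10, MRPL11, MRPL12 and MRPL54. Of these, 3 were higher at D4 than at D0, with a median of 0.52. Among all mRNAs 53.8% were higher, with a median of 0.06, and 4 genes are too few to set against that share. MRPL54 was the exception, at 22.5, 17.8, 18.6 and 19.0 FPKM. At D8 the median was back at 0.00370, against -0.18 for all mRNAs, although MRPL12 stayed above D0.

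At the rim of the exit tunnel, 6 of 8 genes were lower at D4 than at D0, with a median of -0.24. Of the 75 members 43 were lower, with a median of -0.10. Of all mRNAs 4246 of 9191 were lower, with a median of 0.06. MRPL23, one of its proteins, was at 8.15, 5.92, 5.37 and 7.25 FPKM and MRPL24 at 133, 106, 98.9 and 116 FPKM. MRPL45, which holds the ribosome at the inner membrane, was at 22.0, 18.5, 19.7 and 28.6 FPKM, and thus highest at D8. MRPL44 belongs to the same list but stood higher at D4, and MRPL39, also on it, was at 25.8, 33.5, 26.6 and 25.6 FPKM, with D2 alone apart from the others.

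Of the next 6 members, fixed for their role, MRPL58 had the widest range, a ratio of 1.66 of its highest to its lowest stage. MRPL3 was at 16.7, 11.8, 14.4 and 12.4 FPKM and MRPL4 at 8.52, 11.11, 11.18 and 7.98 FPKM. MRPS7, of the head of the small subunit, was at 48.0, 42.4, 44.9 and 39.3 FPKM and MRPS22 at 4.56, 4.43, 4.39 and 3.32 FPKM. On the opposite strand, GGA3, at 1.08 to 1.82 FPKM, overlaps MRPS7 over 3561 bases, its whole length. COPB2, at 67.2 to 83.9 FPKM, overlaps 11648 bases of the MRPS22 gene. The part of these overlapping genes in the MRPS7 and MRPS22 values was not tested. MRPL58, a peptidyl-tRNA hydrolase built into the large subunit, was at 26.4, 15.9, 18.2 and 20.7 FPKM, with a log2 ratio of D2 to D0 of -0.73, 1 of the 6 members at least 1.5-fold lower at D2. MRPS36, of the 2-oxoglutarate dehydrogenase complex, was at 15.6, 18.3, 20.8 and 16.4 FPKM.

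The 3 MRPS18 paralogues come from 1 ancestral gene, and their products take different places, MRPS18A in the large subunit and the other two in the small subunit. MRPS18A was at 10.3, 11.3, 12.7 and 10.6 FPKM, MRPS18B at 40.9, 43.6, 44.8 and 39.4 FPKM, and MRPS18C at 43.0, 36.3, 30.5 and 35.0 FPKM. The first 2 were highest at D4, where MRPS18C was lowest. Both small-subunit paralogues overlap genes on the opposite strand, MRPS18B the gene PPP1R10 and MRPS18C the genes ABRAXAS1 and HELQ.

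Compared with like gene groups, the family lay between the cytosolic ribosomal proteins and all mRNAs in its spread. The ratio of the highest to the lowest stage was under 1.5 in 89.5% of 76 cytosolic ribosomal protein genes and in 89.2% of 65 nuclear genes for subunits of the respiratory chain and ATP synthase, against 69.3% of the members. At D8 against D0, 75 of 76 cytosolic ribosomal protein genes were higher, with a median of 0.23, against 21 of 75 members, with a median of -0.12. The nuclear respiratory genes had a median of 0.02, with 35 of 65 higher. The median of the cytosolic genes at D8 against D0 stayed above 0 under each scaling tried (0.22 to 0.39), whereas that of the members was 0.04 with the libraries scaled to the median mRNA. Cytosolic ribosomal protein genes took 27.5% of the summed FPKM of protein-coding genes at D0, against 0.630% for the members.

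**Figure D4:**
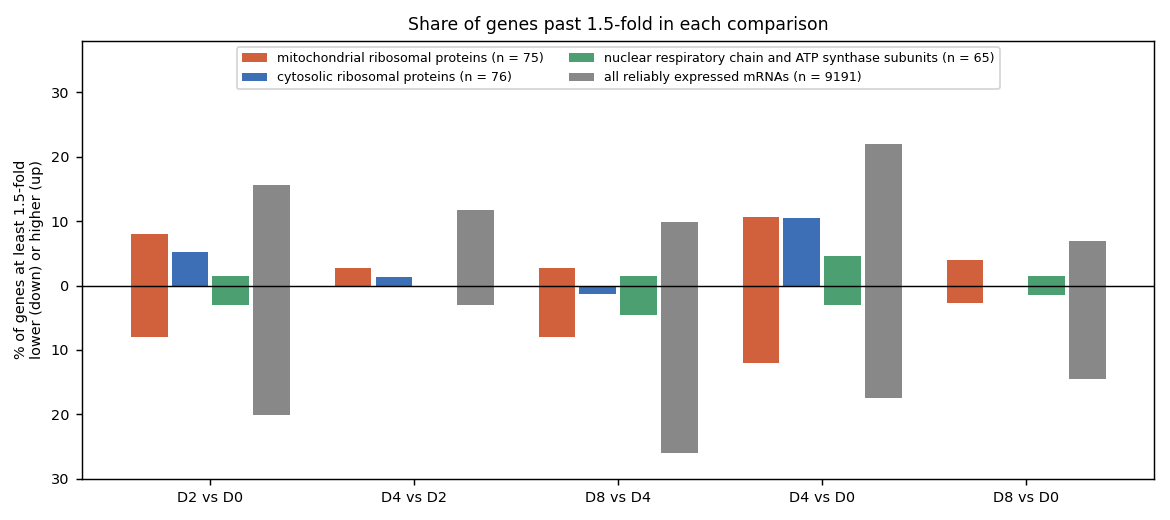
Percentage of genes (vertical) at least 1.5-fold higher (upward bars) or lower (downward bars) in each of 5 comparisons (horizontal) for the 75 mitochondrial ribosomal protein genes, 76 cytosolic ribosomal protein genes, 65 nuclear respiratory genes and all 9191 reliably expressed mRNAs. In each comparison the bars of all mRNAs were the longest in both directions, as at D4 against D0, with 22% higher and 17.5% lower.

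The values for the RNA of the mitochondrial ribosome, read after rRNA removal, took another course than the mRNAs of its proteins. Of the rows on the mitochondrial genome, 2 coincide with the mitochondrial rRNA genes of RefSeq. The small-subunit rRNA (960 bases) was at 64.3, 202, 650 and 73.0 FPKM at D0, D2, D4 and D8, and the large-subunit rRNA (1571 bases) at 108, 324, 921 and 141 FPKM. Both were highest at D4, at a median log2 ratio to D0 of 3.21. Ribosomal RNA had been removed from the samples, so these values are what the removal left, and the part of the removal in the differences was not tested. Of 16 reliably expressed mitochondrial tRNA genes, all 16 were higher at D4 than at D0, with a median of 1.27. Of all mRNAs, 53.8% were higher, with a median of 0.06. The 16 genes share the mitochondrial genome and the same libraries, so they are not separate observations.

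The remaining proteins of the ribosome that do not carry the MRP symbol were 5. DAP3, the GTP-binding protein of the small subunit, was at 5.97, 6.21, 6.76 and 6.09 FPKM, and PTCD3, an RNA-binding small-subunit protein, at 7.36, 8.78, 11.0 and 6.95 FPKM. CHCHD1 was at 10.39, 10.15, 11.14 and 10.87 FPKM, and AURKAIP1 at 56.2, 45.7, 43.0 and 55.0 FPKM. GADD45GIP1, a large-subunit protein, was at 16.4, 15.4, 24.1 and 15.0 FPKM, the only one of the 5 to pass 1.5-fold from D2 to D4.

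Translation factors of the mitochondrion had a median log2 ratio of D4 to D0 of 0.16, with 8 of 12 higher (66.7%), against 0.06 and 53.8% for all mRNAs. TUFM, the elongation factor that delivers aminoacyl-tRNA, was at 30.2, 40.4, 52.3 and 27.5 FPKM, with a log2 ratio of -0.93 from D4 to D8. The elongation factor GFM1 was at 11.97, 12.70, 13.88 and 11.08 FPKM, and GFM2, which acts in ribosome recycling, at 3.03, 3.09, 3.40 and 2.61 FPKM. The initiation factors MTIF2 and MTIF3 lay between 3.12 and 3.43 FPKM and between 1.63 and 2.20 FPKM, and the recycling factor MRRF between 12.3 and 14.5 FPKM. OXA1L, which inserts mitochondrial products into the inner membrane, was at 19.9, 28.7, 34.2 and 22.8 FPKM. TUFM and OXA1L, at 1.73-fold and 1.72-fold, were the 2 genes of this list at least 1.5-fold higher at D4 than at D0 (22% of all mRNAs).

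Mitochondrial aminoacyl-tRNA synthetases, which charge the tRNAs, had a median of 0.18 at D4 against D0, with 11 of 17 higher (64.7%), against 0.06 and 53.8% for all mRNAs, but of -0.06 over those with at least 5 FPKM in all 4 libraries. VARS2, for valine, was at 1.29, 2.59, 4.19 and 1.34 FPKM, and PARS2, for proline, at 2.25, 4.08, 3.94 and 1.86 FPKM. Both were highest at D2 or D4 and more than 2-fold lower at D8 than at D4. AARS2 and MARS2, which were not reliably expressed, were also more than 2-fold lower, at 1.87 and 1.19 FPKM at D4 and 0.805 and 0.541 FPKM at D8.

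Assembly factors of the mitochondrial ribosome were higher at D4 than at D0 in 18 of 24 cases (75%), with a median of 0.25, against 53.8% and 0.06 for all mRNAs. ERAL1, which binds the small-subunit rRNA, was at 1.86, 3.72, 4.98 and 1.75 FPKM, the only one past 2-fold. From D4 to D8 the median was -0.34, with 19 of 24 lower and 5 higher (20.8%), where the median of all mRNAs was -0.21, with 35.1% higher.

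Genes for the transcription of mitochondrial DNA and the processing of its RNA were higher at D4 than at D0 in 17 of 21 cases, with a median of 0.49, and 9 of them were at least 1.5-fold higher. Of all mRNAs, 53.8% were higher and 22% at least 1.5-fold higher, with a median of 0.06. The 4 genes that were lower were SLIRP, SSBP1, TBRG4 and TEFM. SLIRP, the most abundant of the list, was at 192, 181, 132 and 168 FPKM, and SSBP1 at 21.6, 15.8, 13.4 and 18.4 FPKM. The summed level of the list was 415, 434, 410 and 394 FPKM at D0, D2, D4 and D8. TFAM, which packs mitochondrial DNA and starts its transcription, was at 24.3, 39.4, 41.8 and 28.0 FPKM. POLRMT, the RNA polymerase, was at 3.86, 5.14, 5.94 and 3.02 FPKM. FASTKD5, needed for the processing of mitochondrial transcripts, was at 2.10, 4.40, 5.83 and 2.26 FPKM. MTERF1, below 1 FPKM at D0 and D8, was at 0.781, 1.68, 1.35 and 0.952 FPKM.

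Regulators of mitochondrial gene programmes were lower at D8 than at D4 in 9 of 9 reliably expressed cases, with a median of -0.58. Of all mRNAs, 5967 of 9191 were lower, with a median of -0.21. TFAM is 1 of these 9 regulators and is also on the transcription list, so the 2 lists are not separate. MYC was at 3.67, 10.3, 14.3 and 3.99 FPKM, the largest course among the 9. GABPA was at 9.61, 12.3, 12.6 and 7.27 FPKM and ESRRA at 29.8, 33.3, 31.3 and 29.5 FPKM. NRF1, a transcription factor for nuclear genes of mitochondrial proteins, was at 1.92, 1.68, 1.99 and 1.42 FPKM. The coactivators PPARGC1A and PPARGC1B were not reliably expressed. PPARGC1A was at 0.0403, 0.357, 0.355 and 0.0605 FPKM, on 51, 330, 444 and 55 fragments. PPARGC1B was at 0.311, 0.795, 1.24 and 0.297 FPKM.

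From D4 to D8 the medians of the translation factors and the synthetases were -0.13 and -0.21, but 0.08 and 0.00267 with the libraries scaled to the median mRNA. Those of the assembly factors, the transcription list and the regulators stayed below 0, at -0.12, -0.15 and -0.37. At D4 against D0 the members' median was below 0 while the medians of all 6 lists were above it, except that of the synthetases when at least 5 FPKM in all 4 libraries was required. That comparison is of medians side by side, with no test.

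**Figure D5:**
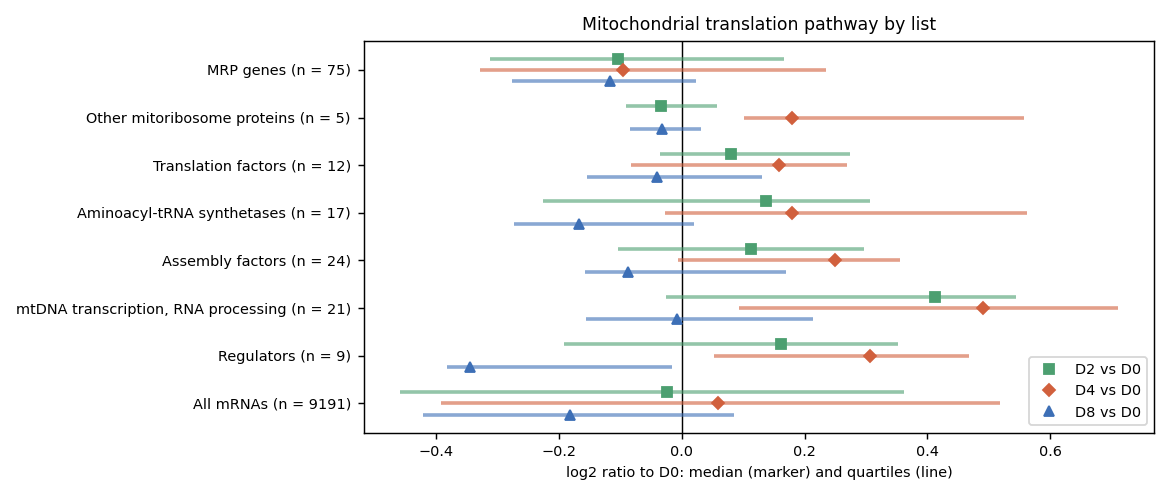
Log2 ratio to D0 (horizontal, log2(FPKM + 0.01)) of the mitochondrial ribosomal protein genes, 6 lists of the mitochondrial translation pathway and all mRNAs (vertical, with the number of reliably expressed genes) at D2, D4 and D8; markers are medians and lines span the quartiles. At D4 the median of the 75 members was -0.10, and those of the lists ran from 0.16 for the translation factors to 0.49 for transcription and RNA processing.

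The members were spread over the genome, with 9 on chromosome 3 as the largest number on 1 chromosome. Of the 75, 27 (36%) had a gene on the other strand that starts within 1000 bases and points away, against 20.2% of the 9191 reliably expressed mRNAs, and the median distance between the starts was 68 bases. MRPL46 and MRPS11, of the large and the small subunit, form such a pair on chromosome 1, with starts 39 bases apart. MRPL46 was at 40.1, 33.3, 29.8 and 32.3 FPKM and MRPS11 at 55.7, 53.5, 44.4 and 53.3 FPKM, so that both were lowest at D4 and highest at D0.

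In 15 pairs, with MRPL46 and MRPS11 counted from each side, the partner was reliably expressed. The 2 genes of a pair differed in the same direction from D0 in 9 of 15 at D2, 6 of 15 at D4 and 9 of 15 at D8. From D2 to D4 they did so in 7 of 15, and from D4 to D8 in 5 of 15. The share over such pairs among all mRNAs was not worked out. MRPL47 and NDUFB5, a subunit of respiratory complex I, start 23 bases apart and were at 16.3, 15.9, 15.5 and 16.8 FPKM and at 99.0, 83.3, 78.7 and 91.6 FPKM. MRPL35 and IMMT, which shapes the cristae of the inner membrane, start 65 bases apart and went opposite ways, at 10.7, 7.20, 6.55 and 9.19 FPKM and at 25.1, 28.0, 33.9 and 26.6 FPKM.

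Circular RNAs lay within 5 of the 75 members on the same strand (6.67%), against 31.9% of all mRNAs, whose genes were longer (median span 26092 against 9331 bases), and the part of gene length was not tested. Of 8623 circRNAs, these were 7, in MRPS5, MRPS25, MRPL42, MRPL37 and MRPL22, and none had more than 29 junction reads in a library. One from MRPS5 (chromosome 3, 46142071 to 46151353) had 7, 22, 29 and 5 junction reads at D0, D2, D4 and D8, while its host mRNA was at 10.9, 11.5, 12.9 and 9.78 FPKM. Such counts are too low to tell most stages apart.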

How the data were processed

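RNA was sequenced from 4 pooled libraries, D0, D2, D4 and D8, each of 3 piglets. Per the labels and the study's methods, the authors removed low-quality and adapter reads, aligned the rest to the pig genome Sscrofa11.1 with HISAT2 (version 2.0.5 in the submitters' processing notes, which also name BWA) and deposited FPKM values for genes. The tool that counted reads, and its strand setting, are not given in the sources used here. circRNA rows of the same deposited column hold SRPBM, junction reads scaled by mapped reads, with at least 2 junction reads required by the authors.

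Fragment totals were worked out from the steps of tRNA and miRNA values (93.4% to 94.9% of these came out whole within 0.01), and the smallest transcript length giving whole fragments in all 4 libraries was taken for each gene. Log2 ratios used a pseudocount of 0.01, and 95% intervals cover counting only. Folds of 2 and 1.5 were the thresholds. With 1 library per stage no test was made and no p-value computed. The calculation of the ratios was tested on simulated data. Python 3.11.15, numpy 2.4.6, pandas 2.3.3 and scipy 1.17.1 were used.

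Named genes were the members past 2-fold, the 3 largest differences each way per comparison, the 5 highest and 5 lowest mean levels, members holding circRNAs, members and pathway genes fixed for their role, and pathway genes past 2-fold, with a few others chosen after their values were seen (MRPL30, MRPL35, MRPL54, MRPS15, MRPS17, OXA1L and the neighbours of members). SLIRP, SSBP1, TBRG4 and TEFM were also named after their values were seen. The members and lists were chosen with earlier results of these data known. The symbol patterns of the cytosolic ribosomal and nuclear respiratory groups were narrowed after their values were seen, to leave out RPL22L1, RPL26L1, RPL7L1, RPS27L, ATP5S and ATP5SL. A comparison planned with the mRNAs of mitochondrial DNA was not made: the mitochondrial rows labelled protein-coding matched rRNA and tRNA genes by position, and these were used in its place. Sequences were not analysed here.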

Additional observations from a re-analysis of the deposited data

Results flagged for a closer look

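Signals outside the main measurement were found in the row of MRPS12 and in circRNA rows. MRPS12, the gene of a protein of the decoding centre, is labelled lncRNA in the files and so was not a member by the rule. It was at 52.7, 38.8, 45.4 and 46.2 FPKM at D0, D2, D4 and D8, within the range of the members.

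The circRNA ssc_circ_0001839 of MRPS5 had 7, 22, 29 and 5 junction reads at D0, D2, D4 and D8. The second circRNA of this gene, ssc_circ_0001840, had 13, 9, 12 and 19 junction reads at the same stages. In MRPS25, ssc_circ_0006615 had 13, 8 and 4 junction reads at D2, D4 and D8, and none at D0, whereas ssc_circ_0006616 had 6, 2 and 3 at D0, D4 and D8 and none at D2. In MRPL37, ssc_circ_0003100 had 6 junction reads at D0, 4 at D4 and 6 at D8. In MRPL22, ssc_circ_0007877 had 5 at D4. Each of these circRNAs was above the 3 reads that a count of 0 allows in at least 1 library, and no difference between stages was tested.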

How the results depend on the processing

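The limit of every comparison is the single library per stage. No paired analysis was possible because each stage has 1 library, and for the same reason no library could be left out. With the libraries scaled to the median mRNA, the median of all mRNAs moved to 0.000412 from D2 to D4, -0.00267 from D4 to D8 and -0.027 from D0 to D8, and that of the members to -0.10, 0.15 and 0.0384. Then 19 members were higher from D2 to D4 and 39 from D0 to D8, the summed level at D8 was 0.0684 (log2) above D0, and at least 1.5-fold higher were 1 member from D2 to D4 and 8 from D4 to D8, with 2 lower by 1.5-fold and 0 by 2-fold from D4 to D8. In the same scaling 2 members passed 2-fold higher at D2 and 1 passed 2-fold lower at D4, both against D0. From D4 to D8 the lists' medians became 0.0609 (the 5 ribosomal proteins not named MRP), 0.0846 (translation factors), 0.00267 (synthetases), -0.12 (assembly factors), -0.15 (transcription and RNA processing) and -0.37 (regulators). From D0 to D8 they became 0.12, 0.12, -0.0120, 0.0673, 0.15 and -0.19, and the first was 0.0434 from D2 to D4. Scaled to the summed FPKM of protein-coding genes, the medians from D0 to D2 were 0.00503 for the members, 0.0844 for all mRNAs, 0.0751 for the 5 other ribosomal proteins and 0.52 for transcription, the summed level at D2 was 0.0300 above D0, 2 members passed 2-fold higher at D2, 1 was 1.5-fold higher and 10 lower from D4 to D8, and 5 were lower by 1.5-fold at D4 against D0. With a pseudocount of 1, single members (1 in place of 2) were 1.5-fold higher from D2 to D4 and from D4 to D8 and 1.5-fold lower from D0 to D8. Without the filter on low values, the regulators' median from D0 to D8 was -0.17. With at least 5 FPKM required in all 4 libraries, 0 members were 1.5-fold higher from D2 to D4, 3 were lower from D4 to D8 and 1 from D0 to D8, and the members' median from D4 to D8 was 0.0330. The medians of all mRNAs were then -0.11 from D4 to D8 and -0.0296 from D0 to D4, of the synthetases -0.0892 at D2 and -0.0627 at D4 against D0, of transcription 0.27 from D0 to D2 and -0.20 from D4 to D8, of the assembly factors -0.12 from D4 to D8, and of the regulators 0.43 at D4 and -0.14 at D8 against D0. The cause of these shifts was not tested. Of the medians, sums and counts recomputed, 424 stayed within counting error or, for counts, within 1.5 times, and 54 did not. Of the members' own log2 ratios, 1932 stayed within counting error and 278 did not, and no member past 1.5-fold changed direction under an alternative. Adding MRPS12 and the 5 ribosomal proteins not named MRP, chosen after seeing the data, left each of the members' values near the reported one, with a median from D2 to D4 of 0.0093. With the wider symbol patterns, also added later, 76 of 80 cytosolic genes were higher at D8 than at D0, and 36 of 67 respiratory genes.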
